A study of Mus musculus with 8 samples.

Results

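The immediate-early genes Fos, Fosb, Junb, Egr1, Egr2, Egr3, Egr4, Npas4, Nr4a1 and Arc were examined in the striatum of adult female mice with and without a disrupted copy of Brd2, which encodes a chromatin reader of the BET family. The 10 genes were taken as every non-control probe of the arrays that carried one of these names, which gave 10 probes on 19 of 43020 spots, since the Fos probe was printed 10 times and each other probe once. All 10 were among the 19843 genes tested. Both groups were C57Bl/6J females of the seventh backcross generation, born to heterozygous parents. The 4 wildtype samples carried intact Brd2, and the 4 heterozygous samples (Brd2+/-) carried a gene trap in 1 allele, recognised by PCR across the junction of the inserted vector. The labels give neither the position of the trap nor whether a sample was 1 animal. The p-values below therefore cover only how far these samples spread. The tissue was frozen after dissection, and its label names the prefrontal cortex beside the striatum. RNA of 2 samples of the same genotype, one in Cy3 (replicates 1 and 3) and one in Cy5 (replicates 2 and 4), was hybridised to each of 4 Agilent arrays.

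Immediate-early genes are transcribed within minutes of a stimulus, without new protein synthesis, because the factors that switch them on are already bound or waiting to be phosphorylated. In neurons, calcium entry and kinase cascades act through CREB at cAMP response elements, whose core is TGACG, and through serum response factor at CArG boxes. Most of the products are transcription factors that start a later wave of genes, whereas Arc acts at synapses, and in dissected brain their RNA is commonly read as a record of neuronal activity shortly before death.

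The 250 bases before the start site of 6 members are shown because response elements there are what such genes are known for, and because the correlation of the members over the samples is examined below. The sequences are RefSeq's on GRCm38.p6, 5′ to 3′ on the gene's own strand. Capitals mark TGACG on either strand (CGTCA is the same core read on the other strand) and, in Egr2, the CArG box. They come from chr12:85473640-85473889 (plus strand, Fos), chr7:19310046-19310295 (minus, Fosb), chr10:67537619-67537868 (plus, Egr2), chr6:85513590-85513839 (minus, Egr4), chr19:4989972-4990221 (minus, Npas4) and chr15:101266596-101266845 (plus, Nr4a1).
Fos: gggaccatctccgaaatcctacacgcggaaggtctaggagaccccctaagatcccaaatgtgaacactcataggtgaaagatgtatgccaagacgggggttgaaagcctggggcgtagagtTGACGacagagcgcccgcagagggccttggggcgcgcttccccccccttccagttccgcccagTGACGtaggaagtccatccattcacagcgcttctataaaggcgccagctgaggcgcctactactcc
Fosb: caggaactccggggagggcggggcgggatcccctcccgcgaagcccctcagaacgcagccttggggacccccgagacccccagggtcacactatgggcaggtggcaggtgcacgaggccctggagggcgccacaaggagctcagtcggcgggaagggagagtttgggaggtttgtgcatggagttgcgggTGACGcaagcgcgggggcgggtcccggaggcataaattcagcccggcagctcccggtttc
Egr2: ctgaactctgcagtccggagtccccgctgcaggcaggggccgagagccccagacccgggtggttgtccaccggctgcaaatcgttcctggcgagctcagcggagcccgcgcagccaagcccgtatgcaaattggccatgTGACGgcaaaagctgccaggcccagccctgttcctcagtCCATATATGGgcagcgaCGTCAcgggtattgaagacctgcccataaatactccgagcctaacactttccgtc
Egr4: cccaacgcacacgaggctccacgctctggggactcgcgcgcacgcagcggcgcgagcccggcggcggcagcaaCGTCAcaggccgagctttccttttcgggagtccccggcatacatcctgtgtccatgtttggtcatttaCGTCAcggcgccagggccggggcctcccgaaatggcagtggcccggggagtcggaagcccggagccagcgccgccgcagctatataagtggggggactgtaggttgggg
Npas4: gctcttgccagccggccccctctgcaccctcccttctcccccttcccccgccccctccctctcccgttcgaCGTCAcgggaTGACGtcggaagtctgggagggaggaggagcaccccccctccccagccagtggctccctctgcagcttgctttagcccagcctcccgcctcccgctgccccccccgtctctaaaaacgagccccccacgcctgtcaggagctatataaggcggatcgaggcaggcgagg
Nr4a1: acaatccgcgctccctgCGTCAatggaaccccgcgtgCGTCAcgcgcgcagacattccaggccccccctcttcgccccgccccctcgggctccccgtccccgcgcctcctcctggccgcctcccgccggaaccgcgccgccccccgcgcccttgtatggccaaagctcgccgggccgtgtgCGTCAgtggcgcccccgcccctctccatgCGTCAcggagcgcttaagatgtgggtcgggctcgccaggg

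The reference table held 7 of the 10 members, and Junb was the one not printed. Motifs were searched on both strands in the 250 bases before and 50 after each start. The table lists 5 starts for Egr2 and 1 for each of the other 6. TGACG was present in the windows of those 6 and of 3 of the 5 Egr2 starts, of which the printed one is the first, and in 20.8% of all 32841 promoters of the table. Fos held 2 cores, beginning 129 and 66 bases before the start. Npas4 held 2 at 179 and 169 bases, Egr4 held 2 at 177 and 109 bases, and Nr4a1 held 4 at 233, 213, 69 and 40 bases. Fosb had a single core 60 bases before the start and Junb a single core at 106 bases. The full palindrome TGACGTCA, which contains the core on both strands, was found in none of the 7 and in 1.79% of all promoters. A CArG box stood 72 bases before the printed Egr2 start, between cores at 111 and 55 bases. No other member of the 7 had a CArG box inside the window, and sites farther from the start were not searched. Of all promoters 1.63% held one. The binding site of the Egr proteins themselves, GCGNGGGCG, was found in Fosb, 50 bases before the start, and in Nr4a1, 60 bases before it, against 5.55% of promoters. The AP-1 site TGANTCA, which Fos and Jun proteins bind as pairs, was found in none of the 7 and in 7.81% of promoters. A match describes these letters and does not show that a factor was bound.

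Between 37.7% and 75.5% of spots were well above background, with 37.7% to 47.6% in Cy3 and 65.9% to 75.5% in Cy5 samples. Brd2 was measured first as a check of the labels. On the normalized log2 scale it read 13.10, 12.98, 12.64 and 12.70 in wildtype replicates 1 to 4 and 11.92, 11.83, 12.57 and 11.70 in heterozygous replicates 1 to 4. All heterozygous values lay below all wildtype values, but the library labelled heterozygous replicate 3 lay next to wildtype. The difference was -0.85 (SE 0.192), with an adjusted p of 0.429 in limma. The mean of all Brd2 probes that passed the filter gave -0.28 (SE 0.155, unadjusted p = 0.107 in limma). In limma 0 of 19843 genes passed an adjusted p of 0.05 (0%), and 1725 (8.69%) had an unadjusted p under 0.05. Ppp1r1b (DARPP-32) and Penk (enkephalin), which mark striatal projection neurons, were bright in both groups. Ppp1r1b averaged 16.69 ± 0.13 (wildtype) and 16.33 ± 0.47 (heterozygous), and Penk 17.03 ± 0.15 and 16.66 ± 0.67 (SD, n = 4).

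No member differed between genotypes beyond the spread of the samples. Heterozygous minus wildtype differences ran from -0.33 for Nr4a1 to 0.37 for Arc on the log2 scale, 7 were below 0 and 3 above, and their median was -0.11. Over all genes tested the median was -0.022 and 54.4% lay below 0. None of the 10 had an adjusted p under 0.05 (background 0%), none an unadjusted p under 0.05 (background 8.69%), and none had groups that did not overlap (background 8.72% of genes measured in all samples). Several members, Egr1, Egr2, Npas4, Nr4a1 and Arc above all, varied widely between samples of the same genotype, whereas Fosb and Egr3 varied less than the median gene. Wildtype replicate 2 was highest for 5 members. Values below are log2 intensities after removal of the fitted dye effect, with the mean ± SD of each group, and a level is compared only within 1 probe.

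**Figure D1:**
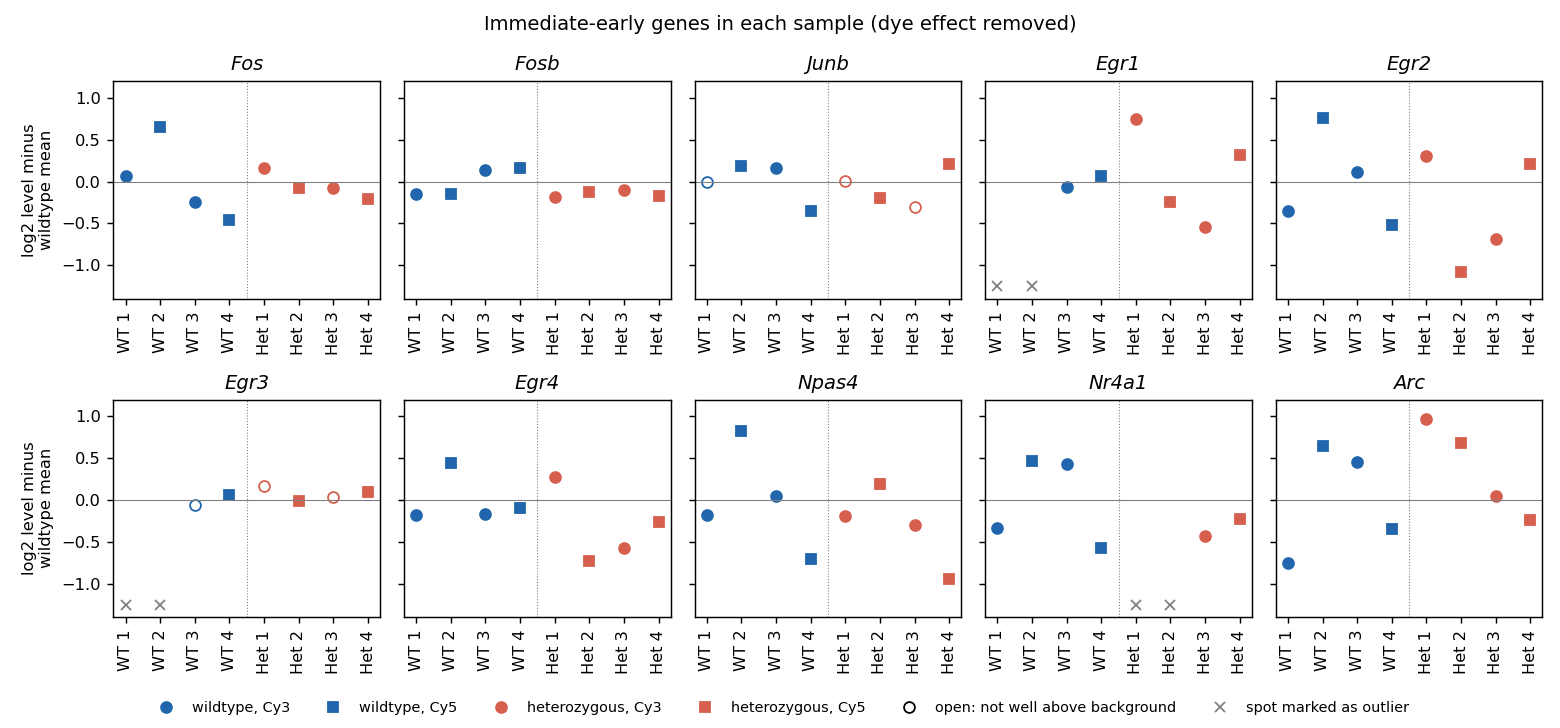
Log2 level of each of the 10 genes in each of the 8 samples, as the difference from the wildtype mean after removal of the dye effect (circles Cy3, squares Cy5; blue wildtype, red heterozygous; open symbols not well above background, crosses spots left out as outliers). Wildtype replicate 2 stands 0.44 to 0.83 above the wildtype mean for Fos, Egr2, Egr4, Arc, Npas4 and Nr4a1, and the groups overlap in every panel.

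Fos, Fosb and Junb encode subunits of the AP-1 transcription factor, in which a Fos protein pairs with a Jun protein. The Fos probe (A_52_P262219, chr12:86817900-86817959, plus strand, mm9 coordinates of the array files) read 9.40, 9.99, 9.09 and 8.88 in wildtype replicates 1 to 4. In heterozygous replicates 1 to 4 it read 9.49, 9.25, 9.26 and 9.12. Wildtype held both the highest and the lowest sample, and all heterozygous values lay between them. The means were 9.34 ± 0.48 and 9.28 ± 0.15 (SD, n = 4), a difference of -0.05 (SE 0.238, 95% interval -0.60 to 0.50, adjusted p = 0.958 in limma). The difference turned to 0.21 (SE 0.135, adjusted p = 0.778 in limma) without wildtype replicate 2 and was -0.24 without wildtype replicate 4.

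The 10 Fos spots gave a technical error that the other members lacked. Within a sample their SD was 0.105 to 0.307 on the normalized log2 scale before removal of the dye effect. The mean over spots was 10.16 in wildtype replicate 2 and 8.92 to 9.43 in the other 7 samples. Among the Cy5 samples its lowest spot, at 10, lay above the highest spot of the others, at 9.75 in heterozygous replicate 2. After removal of the dye effect its spots ran from 9.82 to 10.14 and overlapped those of heterozygous replicate 1, a Cy3 sample, which reached 9.90. The spots measure technical error only.

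**Figure D2:**
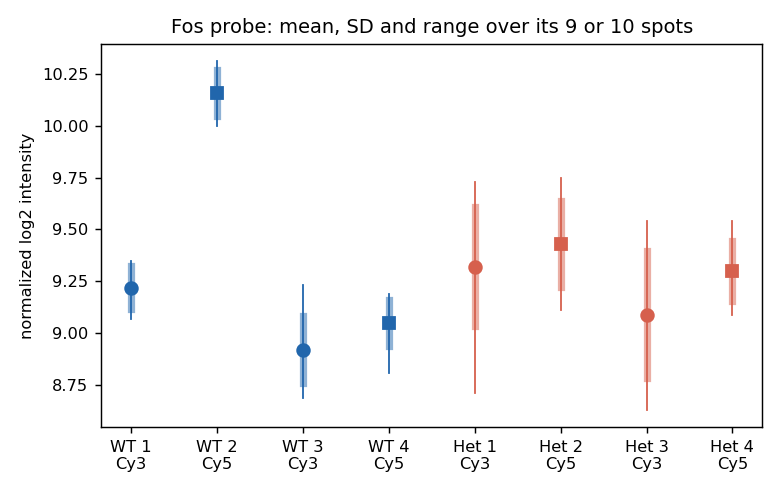
Normalized log2 intensity of the Fos probe in each sample: the mean, the SD (thick bar) and the range (thin bar) over its 9 or 10 spots, with the dye under each sample. The dye effect is not removed here, and on this scale the spots of wildtype replicate 2 range from 10 to 10.31 and those of the other samples from 8.63 to 9.75.

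Fosb, whose splice form deltaFosB is known to build up in striatal neurons on repeated stimulation, varied least among the members that were well above background in all samples. Its probe (A_55_P2113051, chr7:19888168-19888227, minus strand) read 10.36, 10.36, 10.65 and 10.67 in wildtype and 10.33, 10.38, 10.41 and 10.34 in heterozygous replicates 1 to 4. Both wildtype samples of the second array were high, and the other 6 samples lay between 10.33 and 10.41. The means were 10.51 ± 0.18 and 10.36 ± 0.04, and the difference was -0.15 (SE 0.116, 95% interval -0.41 to 0.12, adjusted p = 0.711 in limma). It was -0.08 without wildtype replicate 3 or 4. Which Fosb splice form the probe reads was not examined.

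Junb encodes a Jun partner that is often a weaker activator than Jun. Its probe (A_55_P2011106, chr8:87501881-87501940, minus strand) was dim, and the scanner software called it well above background in 5 samples, 3 of them wildtype. It read 7.93, 8.13, 8.09 and 7.59 in wildtype and 7.94, 7.73, 7.63 and 8.14 in heterozygous replicates. High and low values were present in both groups, with means of 7.93 ± 0.25 and 7.86 ± 0.23. The difference was -0.07 (SE 0.170, 95% interval -0.47 to 0.32, adjusted p = 0.906 in limma), and it came to 0.00 when wildtype replicate 2 was left out and to 0.03 when the library labelled heterozygous replicate 3 was.

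The Egr genes encode zinc-finger factors that bind GC-rich sites. The Egr1 probe (A_51_P367866, chr18:35024395-35024454, plus strand) was bright, but its spots in wildtype replicates 1 and 2, which share an array, were marked as outliers and left out. Wildtype replicates 3 and 4 read 14.18 and 14.32, and heterozygous replicates 1 to 4 read 15.00, 14.01, 13.72 and 14.57. Heterozygous samples thus lay both above and below wildtype, over a range of 1.29. The means were 14.25 ± 0.10 (SD, n = 2) and 14.33 ± 0.57 (SD, n = 4), a difference of 0.07 (SE 0.379, 95% interval -0.86 to 1.00, adjusted p = 0.967 in limma). With the marked spots kept, wildtype replicates 1 and 2 read 13.80 and 14.96 on the normalized scale.

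Egr2, also known for its part in myelination, had the widest range of all members, 1.84. Its probe (A_55_P2033362, chr10:67004798-67004857, plus strand) read 9.74, 10.85, 10.20 and 9.58 in wildtype and 10.40, 9.02, 9.40 and 10.30 in heterozygous replicates. Wildtype replicate 2 was highest and heterozygous replicate 2 lowest, and both carried Cy5. The means were 10.09 ± 0.57 and 9.78 ± 0.68, a difference of -0.31 (SE 0.399, 95% interval -1.23 to 0.61, adjusted p = 0.819 in limma). Leaving out 1 sample gave -0.57 (without heterozygous replicate 4) to -0.01 (without wildtype replicate 2).

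Egr3, which is required for muscle spindle development and takes part in learning, was the dimmest member, and its probe (A_55_P2032412, chr14:70479222-70479281, plus strand) was well above background in 5 samples, 3 of them wildtype. Wildtype replicates 3 and 4 read 7.26 and 7.38, and heterozygous replicates read 7.49, 7.31, 7.35 and 7.40. These 6 values spanned only 0.23, near the floor of the arrays. Of these 6, only wildtype replicate 4 and heterozygous replicates 2 and 4 were well above background. The other samples so called were wildtype replicates 1 and 2, whose spots were left out. Without those spots the probe would not have passed the filter of at least 4 samples. The difference was 0.07 (SE 0.135, 95% interval -0.26 to 0.40, adjusted p = 0.891 in limma). The spots of wildtype replicates 1 and 2 were marked as outliers, and if kept they stood at 11.30 and 8.69 on the normalized scale and gave a difference of -1.27 (SE 0.785, adjusted p = 0.648 in limma).

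Egr4, known for a role in male germ cells as well as for its induction in brain, had a bright probe (A_51_P270426, chr6:85461153-85461212, minus strand). It read 12.83, 13.44, 12.83 and 12.92 in wildtype and 13.28, 12.27, 12.43 and 12.74 in heterozygous replicates. Wildtype replicate 2 and heterozygous replicate 1 were high, whereas the lowest 3 samples were heterozygous. The means were 13.00 ± 0.30 and 12.68 ± 0.45, a difference of -0.32 (SE 0.250, 95% interval -0.90 to 0.26, adjusted p = 0.706 in limma), the smallest adjusted p of the 10. By dye it was 0.03 in the Cy3 samples and -0.67 in the Cy5 samples. It was -0.55 without heterozygous replicate 1 (unadjusted p = 0.0163, adjusted p = 0.350 in limma), and -0.15 and -0.18 without wildtype or heterozygous replicate 2.

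Npas4 encodes a factor that is induced by calcium entry in neurons and governs inhibitory synapses. Its probe (A_55_P1975215, chr19:4984356-4984415, minus strand) read 10.40, 11.40, 10.63 and 9.88 in wildtype and 10.38, 10.76, 10.28 and 9.64 in heterozygous replicates. Wildtype replicate 2 was again highest, and replicate 4 was the lowest of each group. The means were 10.58 ± 0.63 and 10.27 ± 0.47, a difference of -0.31 (SE 0.355, 95% interval -1.13 to 0.51, adjusted p = 0.797 in limma). It turned to 0.02 without wildtype replicate 2 and was -0.59 without wildtype replicate 4.

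Nr4a1 encodes the orphan nuclear receptor Nur77, known in the striatum for its response to dopamine. Its probe (A_51_P239654, chr15:101105071-101105130, plus strand) read 13.31, 14.11, 14.07 and 13.07 in wildtype replicates 1 to 4, and 13.21 and 13.41 in heterozygous replicates 3 and 4. The spots of heterozygous replicates 1 and 2, on a shared array, were marked as outliers and left out. Wildtype replicates 2 and 3 were high, and both remaining heterozygous values lay inside the wildtype range. The means were 13.64 ± 0.53 (SD, n = 4) and 13.31 ± 0.14 (SD, n = 2), a difference of -0.33 (SE 0.356, 95% interval -1.20 to 0.55, adjusted p = 0.789 in limma). One of the remaining heterozygous values is that of the library labelled heterozygous replicate 3, and without it the difference was -0.17 (SE 0.564). Leaving out 1 sample gave -0.57 (without wildtype replicate 4) to -0.14 (without wildtype replicate 2).

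Arc encodes a postsynaptic protein that promotes the removal of AMPA receptors and forms virus-like capsids. Its probe (A_55_P2021810, chr15:74499592-74499651, minus strand) read 12.89, 14.28, 14.09 and 13.28 in wildtype and 14.61, 14.31, 13.68 and 13.39 in heterozygous replicates. The highest sample was heterozygous replicate 1 and the lowest wildtype replicate 1. The means were 13.63 ± 0.66 and 14.00 ± 0.56, a difference of 0.37 (SE 0.388, 95% interval -0.53 to 1.26, adjusted p = 0.779 in limma). By dye it was 0.66 in the Cy3 samples and 0.07 in the Cy5 samples, and it was 0.60 without wildtype replicate 2. It was 0.10 without wildtype replicate 1 and 0.10 without heterozygous replicate 1.

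**Figure D3:**
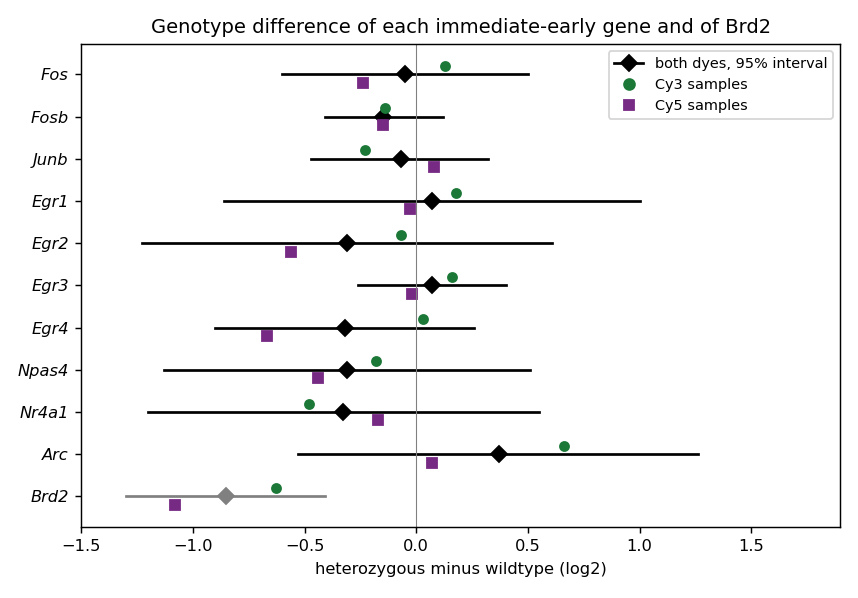
Heterozygous minus wildtype difference of each member and of Brd2 on the log2 scale from the limma fit (diamonds, with the 95% interval), and the differences within the Cy3 samples (green circles) and the Cy5 samples (purple squares). The interval of each of the 10 members includes 0, and that of Brd2 runs from -1.30 to -0.41.

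The intervals show what size of difference these samples could have left unseen. For Fosb the 95% interval reached no further than -0.41 and 0.12, and for Junb it reached -0.47 and 0.32. For Egr2 it ran from -1.23 to 0.61 and for Arc from -0.53 to 1.26. Changes of more than 2-fold thus lay inside the interval of the more variable members. The Junb probe was dim, and the width of its interval depended on the processing. Its SE of 0.17 became 0.381 with the scanner software's processed signals and 0.397 with these scaled to the 75th percentile. With no background correction it was 0.158. Leaving out the library labelled heterozygous replicate 3 gave a median of -0.10 over the members, and the median turned to 0.01 without wildtype replicate 2.

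The wide intervals followed from the spread between samples. The residual SD of Egr2, after genotype and dye were taken out, was 0.687, larger than in 97.5% of the 18583 genes measured in all samples, whose median was 0.212. Arc (0.670) exceeded 97.2% of those genes, Npas4 (0.609) 96% and Egr4 (0.414) 86.5%. Egr1 (0.577) and Nr4a1 (0.538), with 6 values each, exceeded 95% and 93.8%. Fos (0.394) lay at 84.5% and the dim Junb (0.259) at 63.1%, while Fosb (0.138) and the near-background Egr3 (0.092) lay below the median gene, at 23.5% and 7.94%.

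Several members shared their highest sample. Wildtype replicate 2 was the highest sample for 5 of the 8 members measured there (Fos, Egr2, Egr4, Npas4 and Nr4a1), whereas 9.85% of the 10442 genes measured and well above background in all samples had their highest value in it. Heterozygous replicate 1 was highest for Arc, Egr1 and Egr3, against 10.6% of those genes. Egr1 and Egr3 lacked wildtype replicates 1 and 2, and with the marked spots kept this count was 2. The library labelled heterozygous replicate 3 was the highest sample for 28.2% of those genes and for 0 of the 10 members. Wildtype replicates 1 and 2 shared an array, and on it replicate 2 lay above replicate 1 by 1.39 for Arc, 1.11 for Egr2, 1.01 for Npas4, 0.80 for Nr4a1, 0.62 for Egr4 and 0.59 for Fos, with Fosb equal. Wildtype replicate 2 also had the most spots marked as outliers, 978 against 230 to 581 in the other samples. Whether this bears on its levels was not tested.

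The mean over the 7 members with values in all samples, set against the wildtype mean, was -0.22, 0.48, 0.07 and -0.33 in wildtype replicates 1 to 4 and 0.19, -0.19, -0.28 and -0.20 in heterozygous replicates 1 to 4. The heterozygous range lay inside the wildtype range. For the mean over all 10 members, with the values present in each sample, the SD within genotype was 0.273.

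Correlations between members were computed over the 6 to 8 samples that both were measured in, for 43 of 45 pairs. The samples share arrays in pairs, so they are not fully independent, and each dye held 4 samples, too few for a correlation of its own. Of the 43 pairs 33 (76.7%) had a Pearson r above 0, and 10 (23.3%) had an r above 0.7. Over all pairs of the 10442 genes, each pair over 8 samples, the shares were 50.6% and 8.19%. Only the 21 pairs among members with values in all samples rested on 8 samples, and the others rested on 6. A large r arises more easily over 6 samples, so the shares above 0.7 are not strictly alike. Of the 21 pairs, 15 were above 0. Those of the 21 above 0.7 were Egr2 with Egr4 (0.87), Junb with Egr2 (0.82) and Fos with Npas4 (0.78). All other pairs above 0.7 rested on 6 samples. The median r was 0.43 over member pairs and 0.01 over all pairs. No pair passed after Benjamini-Hochberg adjustment over the 43 exact permutation tests (smallest adjusted p = 0.212 for Pearson's r and 0.358 for Spearman's rho), and 5 had an unadjusted p under 0.05 for r. Without wildtype replicate 2 the median r was 0.12, with 24 of 36 pairs above 0. The 7 pairs of Nr4a1 then shared fewer than 6 samples and dropped out, so the 2 medians cover different pairs.

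**Figure D4:**
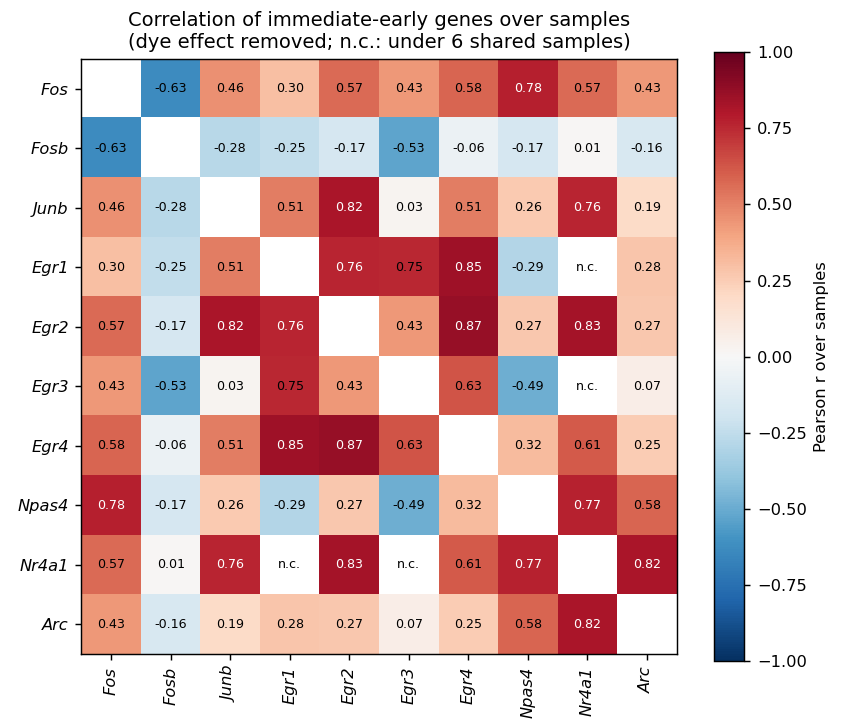
Pearson r between each pair of members over the samples in which both were measured (colour scale from -1 to 1; n.c. where fewer than 6 samples were shared). Egr2 with Egr4 is the pair with the smallest p (r 0.87), the Nr4a1 pairs are all at or above 0.01, and Fosb is negative with all but Nr4a1.

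Egr2 and Egr4 gave the smallest p, with r 0.87 (exact permutation p = 0.00494, adjusted 0.212, n = 8) and rho 0.79 (exact permutation p = 0.0279, adjusted 0.358). Without the 2 samples farthest from the Egr2 median r was 0.63. Both were high in wildtype replicate 2 and heterozygous replicate 1 and low in heterozygous replicates 2 and 3. Junb and Egr2 had r 0.82 (exact permutation p = 0.0176, adjusted 0.311, n = 8) and rho 0.79 (exact permutation p = 0.0279, adjusted 0.358), and r was 0.86 without the 2 samples farthest from the Junb median.

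Fos and Npas4 had r 0.78 (exact permutation p = 0.0294, adjusted 0.311, n = 8) and rho 0.48 (exact permutation p = 0.243, adjusted 0.581). Without the 2 samples farthest from the Fos median r was 0.20, so this relation rested on those samples. Over 6 samples, Egr1 and Egr4 had r 0.85 (exact permutation p = 0.0347, adjusted 0.311) and rho 0.77 (exact permutation p = 0.103, adjusted 0.442), with r 0.60 without the 2 farthest samples. Egr2 and Nr4a1 had r 0.83 (exact permutation p = 0.0361, adjusted 0.311) and rho 0.89 (exact permutation p = 0.0333, adjusted 0.358), with r 0.70 without the 2 farthest. Arc and Nr4a1 had r 0.82 over 6 samples (exact permutation p = 0.0514, adjusted 0.367) and 0.38 over 8 samples with the marked spots kept.

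Fosb stood apart from the rest, with an r below 0 for 8 of its 9 pairs. Its r with Fos was -0.63 (exact permutation p = 0.0953, adjusted 0.372, n = 8). Nr4a1 had the highest median r with the other members, 0.76 over 7 pairs, followed by Egr4 at 0.58 and Egr2 at 0.57. All pairs of Nr4a1 rested on 6 samples. With the marked spots kept, over 8 samples, its r fell for Arc (0.82 to 0.38), Npas4 (0.77 to 0.55) and Fos (0.57 to 0.54). It rose for Egr2, Junb, Egr4 and Fosb, and the place of Nr4a1 in this order depends on those spots. Arc, with a median of 0.27, was above 0 with 8 of its 9 partners. With genotype removed as well as dye, the median over all pairs was 0.45 and 32 pairs were above 0. The median was 0.32 with outlier spots kept, 0.27 with the authors' value table and 0.27 over the 21 pairs of the 7 members with values in all samples.

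The genes outside the fixed lists whose profile over the 8 samples was most like the mean profile of the 10 members were Pramel12 (r 0.913), Ahsa1 (0.899), Nol4l (0.897), Gga3 (0.894) and Arl15 (0.892), followed by Klf7, Grik3, COX1, Airn and Osbpl3 down to 0.852. They were taken from 8744 named genes well above background in all samples, of which 97 had an r above 0.7 and 51 an r below -0.7. Most varied little, with ranges of 0.30 for Pramel12 and 0.54 for Ahsa1, an activator of the chaperone Hsp90, whereas the mitochondrial COX1 ranged over 3.15. Among the genes of the activity-related lists, Klf10 (0.80), the chaperone gene Hspa8 (0.80), the secreted peptide gene Vgf (0.72) and Fosl2 (0.70) had an r above or at 0.7. None lay below -0.7, and the lowest were Cdkn1a (-0.69) and Camk2a (-0.60). The median r was 0.27 over 22 other rapid response genes, 0.32 over 12 delayed effectors and 0.46 over 10 partners and repressors. It was 0.14 over 11 heat shock and stress genes and 0.08 over 23 upstream genes. Over all 8744 named genes it was 0, and over 10 markers of striatal projection neurons 0.33, as high as over the delayed effectors. The other cell type lists had medians from -0.38 (choroid plexus and ependyma) to 0.10 (blood cells).

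The other genes of the pathway were examined in lists. Of 40 further rapid primary response genes 36 were tested, and 21 lay above and 15 below 0, with a median of 0.07. None passed the adjusted threshold in limma, and 1 higher and 2 lower genes had an unadjusted p under 0.05 (background 3.9% higher and 4.8% lower). Those 3 were Ier5, a heat shock factor regulator, at -0.61 (SE 0.162, adjusted p = 0.452), Ccn2, a matrix-associated growth factor, at 1.35 (SE 0.443, adjusted p = 0.506), and the Krüppel-like factor gene Klf4 at -0.33 (SE 0.112, adjusted p = 0.516 in limma). The list's mean level, 0.25, was highest in wildtype replicate 2, next to 0.24 in heterozygous replicate 1.

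Delayed activity-regulated effectors, such as secreted peptides and synaptic proteins, had a median of 0.01 over 20 of 22 genes, with 11 above and 9 below 0. Unadjusted p-values under 0.05 were found for 5, all higher in heterozygous samples (background 3.9% higher). In limma Nrn1, which promotes neurite growth, differed by 1.81 (SE 0.388, adjusted p = 0.426), the neuronal pentraxin gene Nptx1 by 0.78 (SE 0.224, adjusted p = 0.468) and the prohormone convertase gene Pcsk1 by 0.33 (SE 0.109, adjusted p = 0.506). Nrn1 is also one of the 12 cortical excitatory neuron markers described below.

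Of 31 kinases and factors that act upstream 20 lay below 0, beside 54.4% of all genes, with a median of -0.14. Unadjusted p-values under 0.05 were found for 4 of them, all lower (background 4.8% lower). In limma Elk4, a partner of serum response factor, differed by -0.69 (SE 0.180, adjusted p = 0.434), Crtc1, a CREB coactivator, by -0.29 (SE 0.115, adjusted p = 0.542) and Nfatc4, a calcineurin-responsive factor, by -0.28 (SE 0.105, adjusted p = 0.523). Partners and repressors of the members had a median of -0.04 over 16 of 18 genes, and none had an unadjusted p under 0.05. In limma Nab2, a corepressor of Egr proteins, differed by -0.26 (SE 0.123, adjusted p = 0.592), the Jun family gene Jund by 0.42 (SE 0.213, adjusted p = 0.620, with 2 wildtype values) and Ddit3, a stress-induced bZIP factor, by -0.26 (SE 0.151, adjusted p = 0.642). Heat shock and stress genes had a median of 0.14 over 12 of 13 genes, and Hspa1a, an inducible Hsp70 gene, differed by 0.51 (SE 0.169, adjusted p = 0.507 in limma). The chaperone genes Hsp90aa1 and Hspa5 differed by 0.24 (SE 0.159) and 0.20 (SE 0.144). None of these lists held a gene past the adjusted threshold.

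Markers of cell types also differed between the samples. The mean level of 12 cortical excitatory neuron markers, set against the wildtype mean, was -0.14, 0.52, -0.18 and -0.20 in wildtype and 1.52, 1.23, 0.87 and 0.52 in heterozygous replicates 1 to 4. The difference was above 0 for 12 of 12, their median was 1.01, and Slc17a7, the cortical vesicular glutamate transporter gene, differed by 2.15 (SE 0.406, adjusted p = 0.426 in limma). Within each genotype the sample with the highest cortical level, wildtype replicate 2 or heterozygous replicate 1, also had the highest mean level of the members. Over all 8 samples, the 5 cortical markers that were well above background throughout had a median r of 0.07 with the members' mean profile, from -0.19 for Cux2 to 0.20 for Neurod2. Striatal projection neuron markers lay below 0 for 16 of 16 genes (median -0.41), and their mean level was -0.12 to 0.17 in wildtype and 0.11, -0.70, -1.04 and -0.08 in heterozygous replicates 1 to 4. The dopamine receptor genes Drd1 and Drd2 differed by -0.53 (SE 0.348) and -0.28 (SE 0.299). The choroid plexus and ependyma level was -0.16 to 0.17 in wildtype and -0.83 to 1.53 in heterozygous samples, highest in the library labelled heterozygous replicate 3. Ttr (transthyretin), a defining marker, differed by 0.93 (SE 0.918). In heterozygous samples the level of oligodendrocyte markers was -0.10 to 0.63, of astrocyte markers -0.19 to 0.29, of microglial markers -0.19 to 0.06, of endothelial and pericyte markers -0.05 to 0 and of blood cell markers -0.56 to -0.01. Of 8 oligodendrocyte markers 6 lay above and 2 below 0, with a median of 0.13, and the myelin gene Mbp was the lowest at -0.57 (SE 0.155). Cortical neurons express the members too, and the part of these markers in the members' levels was not tested. In whole tissue, fewer cells of a type and less RNA per cell cannot be told apart.

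**Figure D5:**
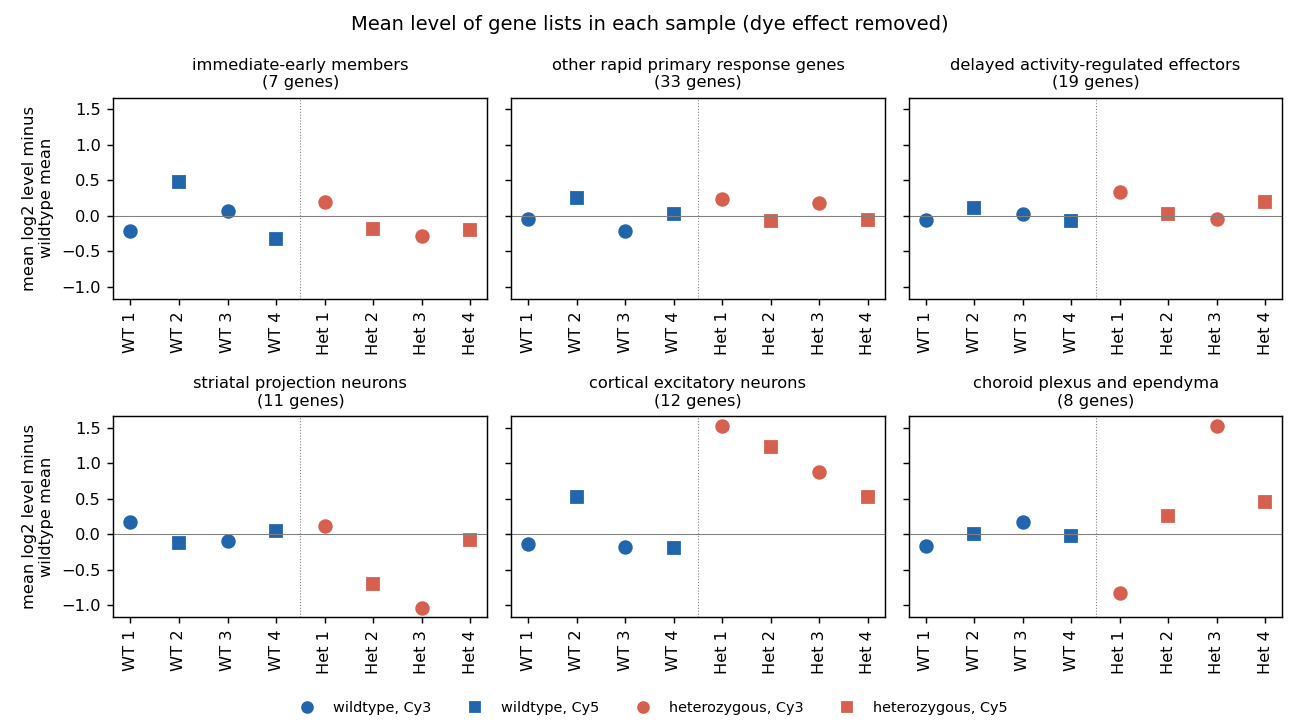
Mean log2 level of gene lists in each of the 8 samples, as the difference from the wildtype mean after removal of the dye effect (circles Cy3, squares Cy5; blue wildtype, red heterozygous), over the genes of each list with values in all samples. The level of the immediate-early members is highest in wildtype replicate 2 (0.48), and that of cortical excitatory markers is highest in heterozygous replicate 1 (1.52).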

How the data were processed

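RNA of 4 wildtype and 4 Brd2+/- samples was read on 4 two-colour arrays. The tissue label of these samples names the prefrontal cortex beside the striatum. Spot intensities were extracted by the authors with Agilent Feature Extraction 10.7.3.1 (array design 026655, mm9 coordinates), per the file headers, which also name dye-normalized processed intensities. The deposited value table holds a ratio of each background-subtracted median intensity to its column's median, as found from the values (100% matched, relative tolerance 1e-04). Its scale, the absence of gene centring and the single-sample direction are thus known, and each column has a median of 1.

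In limma 3.58.1 (R 4.3.3) the background was corrected by normexp with an offset of 50. Loess within and Aquantile between arrays followed, and channels were split into single-channel log2 values. The 1377 control spots and the spots marked as outliers (230 to 978 per sample) were left out; none was saturated. Probes well above background in at least 4 of 8 samples were kept (25338 of 39429), and a gene was represented by its brightest probe. Names came from RefSeq by accession (27234 probes) or symbol (3576), and otherwise from the files (8619).

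Tests used lmFit and eBayes, fitting genotype and dye with the array as a random block (consensus correlation 0.00793), with Benjamini-Hochberg adjustment over 19843 genes. Each array held 1 genotype, so effects of single arrays and genotype cannot be fully told apart. Replicate numbers were not taken as pairs across genotypes in the main fit. On simulated data of 18583 genes the fit recovered 68% of 2-fold and 95% of 4-fold changes, with 6 false calls. The noise was independent between samples and the changed genes were picked at random. Most members varied more than the median gene, so these rates do not hold for them. The members and lists were chosen with earlier results of these data known. Named genes were the members, Brd2, the 3 genes of each activity list with the smallest p, the 10 genes outside the lists most like the members' mean profile, and markers of the tissue (Drd1, Drd2, Ppp1r1b, Penk, Slc17a7, Mbp, Ttr). Pairwise correlations used exact two-sided permutation tests. Alternatives covered background, normalization, the value table, filter, probe choice, blocks, dye, variance model, outlier spots and each sample left out. Figures were drawn with matplotlib 3.10.9.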

Additional observations from a re-analysis of the deposited data

Results flagged for a closer look

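Egr4 measured 13.44 in wildtype replicate 2 on the log2 scale after removal of the dye effect, apart from the other 3 wildtype samples at 12.83, 12.83 and 12.92. The mean level of the cortical excitatory neuron markers, set against the wildtype mean, was 0.52 in the same sample, against -0.20 to -0.14 in the other wildtype samples. A single sample standing apart was looked for in 29 groups of 4, and these 2 were found, where chance gives about 1 in 20 groups.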

How the results depend on the processing

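No member reached an adjusted p under 0.05 in limma under any alternative run (22 for Junb and Egr3, which fail the filter on all 8 samples, and 23 for the others). Egr2, Arc and Nr4a1 kept their sign in all 23. With no normalization between arrays, which moved the median of all genes from -0.022 to 0.091, Fos (0.14), Fosb (0.03), Junb (0.03), Egr1 (-0.16) and Egr3 (-0.06) turned, and the members' median was -0.18 relative to that of all genes. Egr1 turned to -0.12 with processed signals scaled to the 75th percentile and Egr3 to -1.27 with outlier spots kept. In the Cy3 samples alone Fos (0.13) and Egr4 (0.03) turned, and in the Cy5 samples alone Junb (0.08), Egr1 (-0.03) and Egr3 (-0.02). With the replicate block in place of the dye, 0 genes passed, 2040 had an unadjusted p under 0.05, the members' median was -0.13 and Egr1 turned to -0.11. Npas4 was -0.31 in that fit (SE 0.130, unadjusted p = 0.0525, adjusted p = 0.490 in limma), against an SE of 0.355 in the main fit. Residuals of same-numbered samples correlated at -0.29 to 0.16. Such samples carried the same dye, whose effect was removed, so these values do not settle whether they were pairs. Leaving out each sample gave ranges of -0.24 to 0.21 for Fos, -0.22 to 0.03 for Junb, -0.20 to 0.35 for Egr1, -0.02 to 0.16 for Egr3, -0.59 to 0.02 for Npas4, -0.22 to -0.08 for Fosb, -0.57 to -0.01 for Egr2, -0.55 to -0.15 for Egr4, 0.10 to 0.60 for Arc, -0.57 to -0.14 for Nr4a1 and -0.23 to 0.01 for the members' median. It gave 0 genes past the threshold each time, and 0 to 1 member pairs past it (1 without heterozygous replicate 4). Single genes passed with the mean of all probes of a gene (1, Timp2, 1.83) and in the Cy5 samples alone (1, Sv2c, -3.49). The cause of these changes was not tested. The brightness of Junb and Egr3, near background in 3 samples each, and the number of samples limit what could be seen.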
